A study of Mus musculus with 6 samples.

Results

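The 32 genes described here were listed as genes of DNA replication and mitosis. Their list was drawn up with earlier results of these data known. A gene was counted as measured where at least 1 probe set, the group of probes that reads 1 transcript, was annotated to its symbol alone. Of the 32 genes, 31 had such a probe set, out of 10290 genes with one in the table, and Ccnb1, cyclin B1, is not analysed here. A filter on low signal (mean log2 signal at or above the 40th percentile of all probe sets) left 30 of the 31 genes and 7245 genes in all. Tyms, thymidylate synthase, did not pass it. The genes were parted into 16 of G1/S and replication, of which 15 were tested, and 16 of G2/M and mitosis, of which 15 were tested.

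The data were 6 expression arrays of anterior presomitic mesoderm (PSM), the unsegmented tissue that buds off somites, dissected from mouse embryos of strain C57BL6/6J at embryonic day 8.75. Controls had the genotype R26R AC/AC. Mutants had R26R AC/AC;T-Cre, so the AC allele at ROSA26 was homozygous in all pools and Cre was present in mutants alone. Each genotype had 3 pools of 3 PSMs. From knowledge of the study, not from the labels, AC stands for A-CREB, a dominant-negative protein that keeps CREB family factors off DNA and that Cre switches on. T-Cre is driven by the promoter of T (Brachyury), active in the primitive streak and the mesoderm that leaves it. With no T-Cre pool lacking the AC allele, effects of Cre and of AC cannot be told apart.

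A cell enters S phase when D- and E-type cyclins inactivate the retinoblastoma family and free E2F factors, which switch on genes for the MCM helicase, nucleotide supply and polymerases. Genes of mitosis peak later, driven by the MuvB complex with B-Myb and FoxM1. The kinase inhibitor p21, product of Cdkn1a and a target of p53, can hold both waves down. CREB binds the cyclic AMP response element (CRE), and promoters of some cell cycle genes carry one. The PSM is a dividing tissue, and new somites depend on its supply of cells.

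Array medians lay between 491 and 535 signal units. A spiked-in control RNA, dap, had a 3' to 5' signal ratio above 15 on 3 arrays, those of control 1, mutant 1 and mutant 2. These form the high-ratio set, and the other 3, with ratios under 15, form the low-ratio set. The same ratio for the mouse RNAs Actb and Gapdh did not part the arrays in this way. For Actb it was 2.05, 1.53 and 1.72 in controls 1, 2 and 3 and 1.40, 1.80 and 1.80 in mutants 1, 2 and 3. The PSM markers could be checked for 9 of 10 genes, of which 7 passed the filter. Markers of other tissues were also read, and for 5 of 7 marker lists the summed signal did not overlap between genotypes. For PSM markers the sum was 9947 to 12418 in control pools and 5524 to 8269.9 in mutant pools, and for lateral mesoderm markers (4 of 7 with a probe set) 5257 to 5526 in control pools and 2606 to 3296 in mutant pools. For endothelial markers (7 of 10) it was 9749.7 to 10628 in control pools and 5531 to 8166 in mutant pools, for surface ectoderm markers (10 of 10) 15711 to 17691 in control pools and 23552 to 25112 in mutant pools, and for blood markers (7 of 9) 32059 to 44561 in control pools and 44586 to 62560.5 in mutant pools. Sums of the neural tube markers (6 of 7) and gut endoderm markers (8 of 8) overlapped, at 7258 to 9482 in control pools and 7636 to 10580.1 in mutant pools for the first and 7505 to 10988 in control pools and 10114 to 21992 in mutant pools for the second. Aplnr alone made up most of the endothelial sum in every pool. No marker with a probe set was at 0. The part of these tissue shares in the results was not tested, and in bulk tissue fewer cells of a type and less RNA per cell cannot be told apart.

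The comparison of mutant with control pools asks how genes of cell division respond in PSM that carries Cre beside the AC allele. In mutant PSM, 2 of the 30 tested genes fell: Rrm1, the large catalytic subunit of ribonucleotide reductase, and Brca2, which acts in the repair of broken DNA and protects stalled replication forks. Their mutant signals were 48.9% and 51.3% of control. Of the other 28 genes, 0 passed the test in either direction, among them every MCM subunit, Pcna, all cyclins and all mitotic kinases that were tested. A call was an adjusted p under 0.05 by limma with Benjamini-Hochberg adjustment over all 7245 genes, and differences are log2 of signal plus 1, mutant minus control. Called lower genes made up 6.67% of the 30, against 1.10% of all genes tested, while 0 of the 30 were called higher, against 0.594%. Calls in either direction made up 1.70% of all genes tested. As the list was drawn up with earlier results known, these shares describe it and test nothing.

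**Figure D1:**
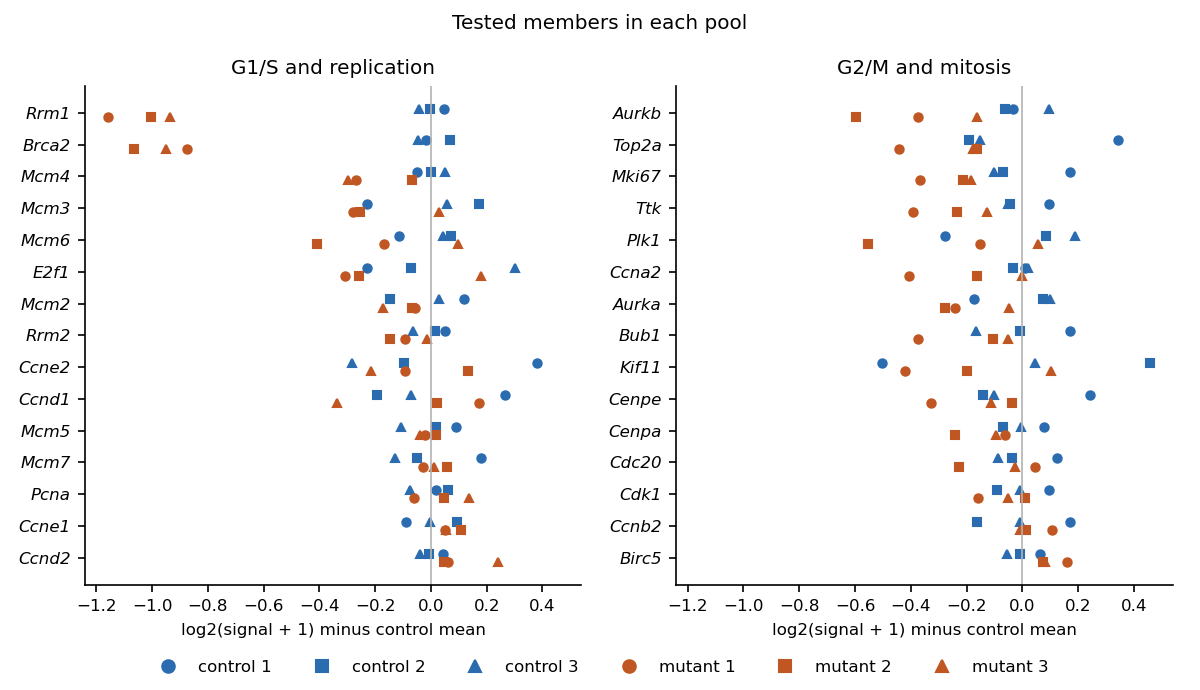
Each point is 1 pool, with the horizontal axis giving log2(signal + 1) minus the mean of the 3 control pools, for the 15 tested genes of each group. Rrm1 and Brca2 sit apart at the left, with all 3 mutant pools at least 0.8 below the control mean, while the other genes lie within 0.6 of it.

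Rrm1 had signals of 5751, 5549 and 5400.2 in control pools 1, 2 and 3 and of 2491, 2771 and 2912 in mutant pools 1, 2 and 3. The 2 genotypes did not overlap, and the spread within each was small beside the gap. Mean signal was 5567 ± 176 (SD, n = 3) in control and 2724 ± 214 (SD, n = 3) in mutant, which is 48.9% of control by the fitted difference (95% confidence interval 41.8% to 57.1%). The log2 difference was −1.03 (SE 0.10, limma adjusted p = 0.000972), the 16th largest among the 80 genes called lower and the 7th smallest p of 7245. A second Rrm1 probe set read lower signals of 530.0, 1058 and 1130.4 in control and 388, 497 and 733 in mutant pools. It differed in the same direction, by −0.72, but control 1 lay below mutant 3, all high-ratio arrays lay below all low-ratio arrays, and it was not called (limma adjusted p = 0.353 over all probe sets).

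Rrm2, the small subunit that pairs with Rrm1 and supplies the radical for the reaction, had signals of 17922, 17462 and 16546 in control and 16212, 15613 and 17119 in mutant pools. The genotypes overlapped, with a difference of −0.086 (95% confidence interval −0.27 to 0.10, limma adjusted p = 0.690). Its other 2 tested probe sets gave larger differences of −0.30 and −0.17, both with overlap and neither called, and the mean over all 3 was −0.19. The difference between Rrm1 and Rrm2 was not tested. Tyms, which makes thymidylate, had low signals of 158, 247 and 251 in control and 242, 235 and 252 in mutant pools, below the filter, and was not tested.

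Brca2 had signals of 1399.6, 1487 and 1372 in control and 774, 678 and 735 in mutant pools. All 3 mutant pools lay below all 3 control pools, with the lowest control pool well above the highest mutant pool. Mean signal was 1419 ± 59.8 (SD, n = 3) in control and 729 ± 48.5 (SD, n = 3) in mutant, a log2 difference of −0.96 (SE 0.12, limma adjusted p = 0.00348). By the fit, mutant signal was 51.3% of control (95% confidence interval 42.8% to 61.5%). Brca2 has 1 probe set in the table, so no second reading of it was available.

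Rrm1 and Brca2 were lower in both sets of arrays, which follows from all their mutant pools lying below all their control pools. For Rrm1 the difference was −1.13 between high-ratio arrays and −0.91 between low-ratio arrays. For Brca2 it was −0.95 between high-ratio arrays and −0.96 between low-ratio arrays. Both genes were called in each of 15 alternative analyses, the highest adjusted p being 0.0436 for Rrm1, with its 2 probe sets averaged, and 0.0259 for Brca2, without mutant 2.

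**Figure D2:**
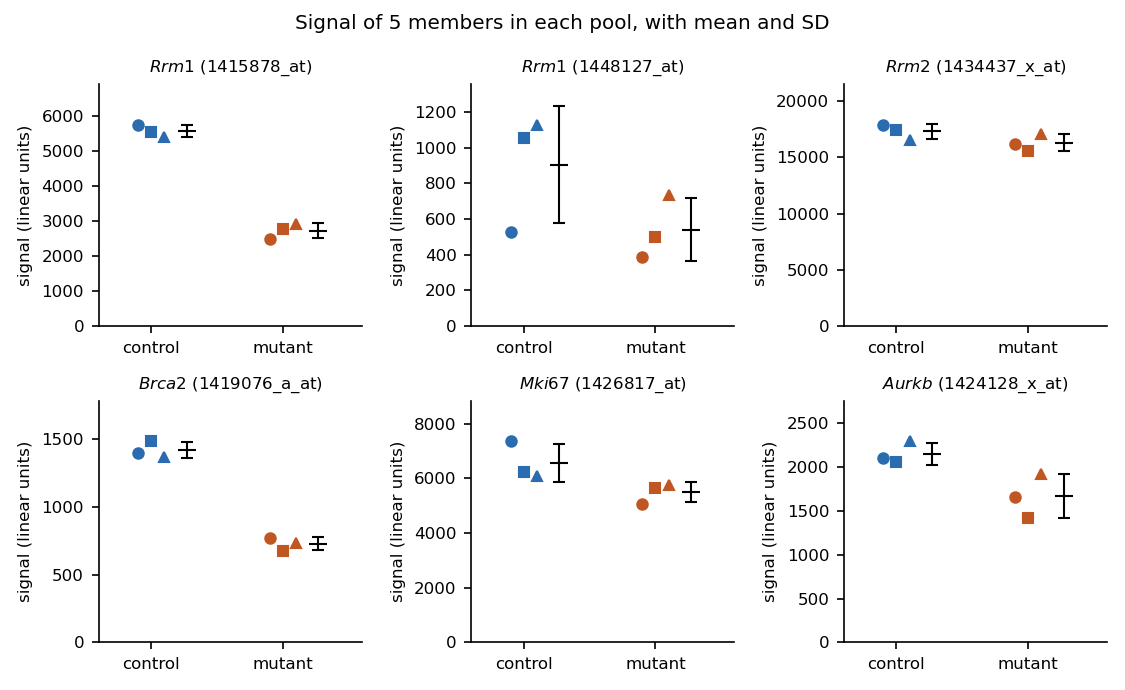
Signal in linear units for Rrm1 (both probe sets), Rrm2, Brca2, Mki67 and Aurkb, with circles, squares and triangles for pools 1, 2 and 3 and bars for mean and SD of 3 pools. The main Rrm1 probe set and Brca2 show gaps between the genotypes that exceed the spread within them, and Rrm2 overlaps.

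Promoter sequences of the called genes and of a pair of mitotic genes are shown to set their motifs side by side. They are the 250 bases before the RefSeq start site in build GRCm38.p6, written 5′ to 3′ along the gene. Capitals mark a CRE (TGACGTCA) or its core (TGACG), a cell cycle homology region or CHR, which the MuvB complex binds (TTTGAA, with TTCGAA as its other form), a CCAAT box (CCAAT), and an E2F site (TTTGGCGC, TTTCCCGC, TTTCGCGC or TTTGCCGC), on either strand. A whole CRE contains that core on both strands.

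Rrm1 (chr7:102441445-102441694, forward strand): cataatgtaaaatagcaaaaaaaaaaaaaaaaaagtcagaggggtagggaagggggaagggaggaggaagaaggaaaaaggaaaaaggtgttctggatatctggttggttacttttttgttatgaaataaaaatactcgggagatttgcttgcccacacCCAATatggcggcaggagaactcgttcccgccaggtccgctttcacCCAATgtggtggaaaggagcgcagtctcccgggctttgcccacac
Brca2 (chr5:150522371-150522620, forward strand): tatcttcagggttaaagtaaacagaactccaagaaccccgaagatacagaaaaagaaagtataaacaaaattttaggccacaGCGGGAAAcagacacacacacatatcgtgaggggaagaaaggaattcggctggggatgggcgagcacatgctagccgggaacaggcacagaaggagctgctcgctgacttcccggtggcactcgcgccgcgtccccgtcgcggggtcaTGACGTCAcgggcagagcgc
Top2a (chr11:99024190-99024439, reverse strand): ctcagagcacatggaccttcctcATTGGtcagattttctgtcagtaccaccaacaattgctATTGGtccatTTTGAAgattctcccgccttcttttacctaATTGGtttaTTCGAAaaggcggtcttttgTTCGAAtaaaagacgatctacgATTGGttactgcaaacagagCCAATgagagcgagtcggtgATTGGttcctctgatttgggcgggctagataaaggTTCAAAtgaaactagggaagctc
Mki67 (chr7:135716380-135716629, reverse strand): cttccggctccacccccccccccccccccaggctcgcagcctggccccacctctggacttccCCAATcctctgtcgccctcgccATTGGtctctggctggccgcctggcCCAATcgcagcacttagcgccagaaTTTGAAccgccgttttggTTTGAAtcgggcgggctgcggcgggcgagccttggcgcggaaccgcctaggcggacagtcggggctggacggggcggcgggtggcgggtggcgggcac

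The Brca2 window held a whole CRE, 20 bases before the start, and an E2F match 168 bases before it. The Rrm1 window held neither, and its matches were CCAAT boxes at 91 and 45 bases before the start. Top2a, the topoisomerase that untangles sister chromatids, had 4 CHR matches and 6 CCAAT boxes, and Mki67, which encodes the Ki-67 antigen, had 2 CHR matches and 3 CCAAT boxes. The mitotic genes Ttk and Plk1, whose sequences are not shown, had 0 CHR matches in these 250 bases, with 2 CCAAT boxes in Ttk and 1 in Plk1. No motif of this set was found in both Rrm1 and Brca2.

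Promoter windows of 300 bases (250 before and 50 after the start) were found for 26 of the 32 genes. A CHR match was present in 11 of 14 windows of G2/M genes (78.6%), 2 of 12 of G1/S genes (16.7%) and 21.7% of 27025 genes in the RefSeq promoter table. Among the 11, Ttk and Plk1 had their match only with the 50 bases after the start included. An E2F match was present in 5 of 12 G1/S genes (41.7%), 1 of 14 G2/M genes (7.14%) and 2.60% of all genes, and a CCAAT box in 21 of 26 genes against 41.1% of all. A whole CRE was present in 3 of 26 genes (11.5%) and 2.03% of all: Brca2, Mcm5 and Cenpe. Their log2 differences were −0.96, −0.014 and −0.16, so 1 of the 3 was called. The 9 tested genes with a CRE core had a median difference of −0.099, and the 15 tested genes without one had −0.17. A match is a description of the sequence and not a measured binding site.

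The MCM helicase, a ring of 6 subunits that unwinds DNA at the fork, was read strongly in every pool. Differences ran from −0.21 for Mcm4 to 0.015 for Mcm7, and 0 of the 6 were called. Mcm4 had signals of 11425, 11826 and 12231 in control and 9823, 11272 and 9617 in mutant pools. Its mutant pools all lay below its control pools, on both of its probe sets, but the difference did not pass (95% confidence interval −0.42 to −0.0044, limma adjusted p = 0.318). The other 5 overlapped between genotypes, with −0.10 for Mcm2, −0.17 for Mcm3, −0.014 for Mcm5 and −0.16 for Mcm6.

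Pcna, the sliding clamp of the replicative polymerases, had signals of 21035, 21684 and 19723 in control and 19936, 21467 and 22842 in mutant pools. The genotypes overlapped and the difference was 0.040 (95% confidence interval −0.15 to 0.23, limma adjusted p = 0.876).

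Cyclins and their regulator E2f1 were not called either. Ccnd2, cyclin D2, had signals of 13634, 13182 and 12884 in control and 13791, 13674 and 15644 in mutant pools. All 3 mutant pools lay just above the control pools, with a difference of 0.12 (limma adjusted p = 0.591). All 7 Ccnd2 probe sets differed upward, from 0.020 to 0.61, and 0 of them passed. On those with 0.61, 0.45 and 0.26, all high-ratio arrays, which include mutants 1 and 2, lay above all low-ratio arrays. Ccnd1, cyclin D1, had 8155, 5931 and 6460.3 in control and 7643, 6891 and 5367 in mutant pools, with a difference of −0.048, and its 3 probe sets disagreed in sign, from −0.048 to 0.28. Both E-type cyclins, which drive entry into S phase, overlapped between genotypes on their brightest probe sets, with 0.069 for Ccne1 and −0.057 for Ccne2. The second Ccne1 probe set read 1214, 1137 and 1143 in control and 1313, 1516 and 1352 in mutant pools. There all mutant pools lay above all control pools, by 0.26, and it was not called (limma adjusted p = 0.370 over all probe sets). E2f1, the activator of the S phase genes, had weak signals of 342, 382 and 495 in control and 324, 335 and 454 in mutant pools, and a difference of −0.13 (95% confidence interval −0.55 to 0.29).

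Among genes of G2/M and mitosis, limma called 0 of 15, against 1.70% of all genes tested. Unadjusted limma p was under 0.05 with a lower value in 2 of the 15 (13.3%, against 8.47% of all genes). Of the 15 differences, 13 were below 0, against 52.4% of all genes. The largest was that of Aurkb, the kinase that corrects faulty spindle attachments, with signals of 2103, 2064 and 2298 in control and 1659, 1422 and 1921 in mutant pools. The genotypes did not overlap on either of its 2 probe sets. The log2 difference was −0.38 (SE 0.13, 95% confidence interval −0.67 to −0.090), short of a call (limma adjusted p = 0.196).

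Mki67 had signals of 7359, 6219 and 6092 in control and 5067, 5639 and 5751 in mutant pools. Its mutant pools also lay below all control pools, with a difference of −0.25 (limma adjusted p = 0.294). Ttk, a kinase of the spindle checkpoint, had 2298, 2084 and 2077 in control and 1639, 1830.3 and 1968 in mutant pools, again without overlap, and a difference of −0.25 (limma adjusted p = 0.338). In Top2a the control pools read 14615, 10084 and 10356 and the mutant pools 8465, 10284 and 10173. Here control 1 alone stood high, the other pools overlapped, and the difference of −0.26 was not called (limma adjusted p = 0.437).

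The kinase that drives mitosis and its partners varied less. Cdk1 had signals of 8746, 7692 and 8146 in control and 7331, 8238 and 7900.2 in mutant pools, overlapping, with a difference of −0.067. Ccna2, cyclin A2, had 5686, 5516 and 5729 in control and 4261, 5039 and 5632 in mutant pools, with a difference of −0.19. For Ccna2 the mutant 1 pool was lowest and mutant 3 lay within the controls. Ccnb2, cyclin B2, differed by 0.037 and overlapped.

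The remaining mitotic genes overlapped between genotypes on the tested probe set, apart from Birc5. Differences were −0.22 for Plk1 and −0.19 for Aurka, kinases of centrosome maturation, and −0.18 for Bub1, a checkpoint kinase. They were −0.13 for Cenpa, the histone variant of centromeres, −0.16 for Cenpe and −0.17 for Kif11, both spindle motors, and −0.069 for Cdc20, an activator of the anaphase-promoting complex. For Plk1, Aurka and Kif11, all high-ratio arrays, which include mutants 1 and 2, lay below all low-ratio arrays. Birc5, or survivin, a partner of Aurkb, had 7439, 7073 and 6861 in control and 7959.9, 7498 and 7527 in mutant pools. All its mutant pools lay slightly above the control pools, with a difference of 0.11 (limma adjusted p = 0.632), so it and Aurkb pointed in opposite directions and neither was called.

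**Figure D3:**
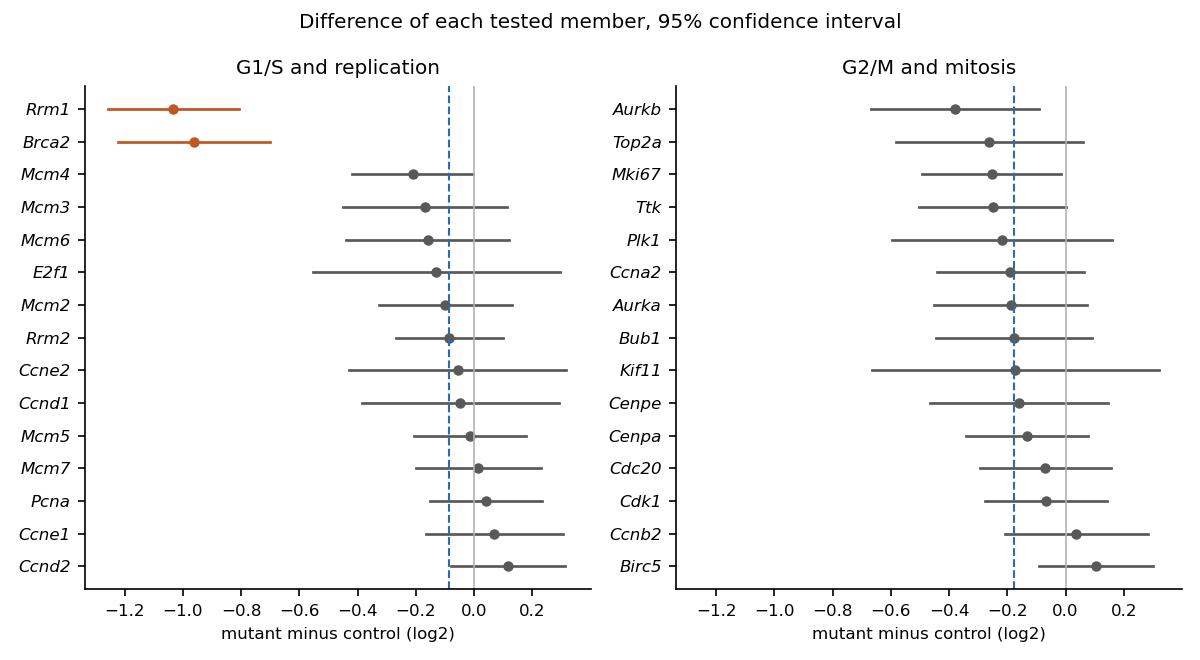
Points give the log2 difference of each tested gene, mutant minus control, with lines for its 95% confidence interval and dashed lines for the group medians of −0.086 and −0.18. The 2 called genes are orange, and no other interval reaches −1.

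Besides the called pair, the genes differed little in size. All 28 genes that were not called had a difference under 0.4 in absolute log2 units, and 0 of their 28 confidence intervals reached −1. Most genes were alike in this. Of all 7245 genes tested, 6594 had a difference under 0.4, and the smallest called difference was 0.44. Intervals reached −1 in 51 of the 7122 genes not called. Among the 28 members not called, the lowest bounds were −0.67, in Aurkb and in Kif11. The median difference over the 30 genes was −0.15, against −0.013 over all 7245 genes. It was −0.086 for G1/S and replication and −0.18 for G2/M and mitosis. The difference between these medians was not tested. Values below 0 were found in 24 of 30 genes, 11 of 15 of G1/S and 13 of 15 of G2/M, against 52.4% of all genes. All 3 mutant pools lay below all control pools in 6 of 30 genes (20.0%, against 11.5% of all genes tested), and above them in 2 of 30 (6.67%, against 9.73%). Unadjusted p was under 0.05 with a lower value in 5 of 30 (16.7%, against 8.47%).

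The small downward shift differed in size between the sets of arrays, each of which has 1 array in one genotype. Within the high-ratio set, which compares control 1 with mutants 1 and 2, the median over the 30 genes was −0.17, and within the low-ratio set, which compares controls 2 and 3 with mutant 3, it was −0.0047. For G1/S and replication the values were −0.16 and 0.0074, so the sign turned. For G2/M and mitosis they were −0.23 and −0.0066. Mki67, for example, had −0.46 between high-ratio arrays and −0.10 between low-ratio arrays, and Top2a had −0.65 between high-ratio arrays and −0.0066 between low-ratio arrays. Some genes went the other way. Mcm4 had −0.12 between high-ratio arrays and −0.32 between low-ratio arrays, and Kif11 had 0.20 between high-ratio arrays and −0.15 between low-ratio arrays. The median of the mitotic genes was near 0 within the low-ratio set. Rrm1 and Brca2 were lower in both sets, as must follow where all mutant pools lie below all control pools. Others were also lower in both, such as Aurkb, with −0.45 between high-ratio arrays and −0.18 between low-ratio arrays. With the ratio set as a term in the model of all 6 arrays, the medians stayed below 0, at −0.10 over all 30 genes, −0.067 for G1/S and −0.14 for G2/M. Without control 1 they were −0.090 over all 30 genes, −0.041 for G1/S and −0.095 for G2/M.

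**Figure D4:**
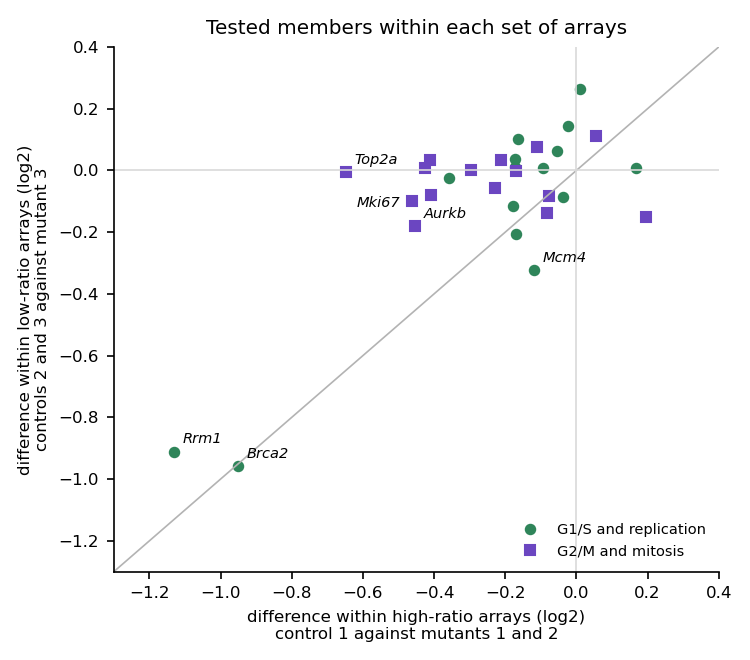
Each point is 1 of the 30 tested genes, with the log2 difference within the high-ratio arrays on the horizontal axis and within the low-ratio arrays on the vertical axis, and a grey line where both are equal. Rrm1 and Brca2 lie near the line at the lower left, while Top2a and Mki67 lie closer to 0 on the vertical axis than on the horizontal axis.

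Pool by pool, the 15 mitotic genes had median deviations from their control means of −0.33, −0.20 and −0.051 in mutants 1, 2 and 3, and of 0.095, −0.045 and −0.0082 in controls 1, 2 and 3. Mutant 1 was lowest and mutant 3 close to the controls. For the 15 replication genes the medians were −0.091, −0.066 and −0.015 in mutants, and for the 13 of them other than Rrm1 and Brca2 they were −0.061, 0.019 and 0.012. Several probe sets followed the ratio sets rather than genotype. Of 58 tested probe sets of these genes, the high-ratio arrays did not overlap the low-ratio arrays in 24 (41.4%, against 29.3% of all tested probe sets with 1 symbol), being lower in 15 and higher in 9. An example is a Mcm2 probe set with 2968, 5853 and 5821 in control and 3906, 3789.6 and 5616 in mutant pools. Another Mcm2 probe set, used in the test, read 5329, 4443 and 5012 in control and 4721, 4693 and 4357 in mutant pools, without that split. Of the probe sets used in the test, all high-ratio arrays lay below all low-ratio arrays for Plk1, Aurka, Kif11, Mcm3, Mcm6 and E2f1. They lay above them for Ccnd1, Ccne2 and Ccnb2. Several probe sets were tested for 17 genes. Their signs matched in 13 of these genes and were mixed in Ccnd1, Cenpe, Mcm3 and Mcm7.

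Genes around these members in the same pathways were read from 12 further lists of 159 genes, of which 141 were tested. In these, 3 genes rose and 0 fell in the main analysis, while some alternatives called genes lower. The lists had a joint median of −0.028. An unadjusted limma p under 0.05 was found for 20 of the 141, against 1089 of all 7245 genes tested. Of these 20, 15 were lower, which is 10.6% of the 141, against 8.47% of all genes. Called lower genes were 0 of 141, against 1.10% of all genes, and called higher genes 2.13%, against 0.594%. These lists too were drawn up with earlier results known, so the shares describe them and test nothing.

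The 3 genes that rose were an inhibitor and a pair of cyclins. Cdkn1a, the gene of p21, had signals of 343, 330.3 and 380.5 in control and 2089, 2221 and 1751 in mutant pools. It rose by 2.52 (SE 0.14, limma adjusted p = 9.88e-06). Ccng1, cyclin G1, a known p53 target, had 1955, 1829.7 and 1759.7 in control and 9349, 10023 and 8560.0 in mutant pools, a rise of 2.33 (limma adjusted p = 2.42e-06). Ccnh, the cyclin of the kinase that activates other cyclin-dependent kinases, had 5067, 4618 and 4949 in control and 6702, 6815 and 6334 in mutant pools. It rose by 0.44 (limma adjusted p = 0.0446), with a call lost without control 2 (0.171), control 3 (0.153), mutant 1 (0.179) or mutant 2 (0.178), and kept in 7 of 15 alternative analyses.

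The other inhibitors and pocket proteins given here were named after their values were seen. Rbl1, which encodes p107, had −0.47 (limma adjusted p = 0.0982) and Cdkn1b, the gene of p27, −0.39 (limma adjusted p = 0.282). Rb1 had 0.31 (limma adjusted p = 0.363), with all mutant pools above all control pools. Of the 6 tested genes of this list, Cdkn1a included, 4 lay above 0, and the median was 0.036. The 11 other cyclins and kinases had a median of −0.045. Of 7 other E2F factors and partners, 0 were called, with −0.47 for E2f5 (limma adjusted p = 0.107), −0.32 for E2f6 and −0.29 for Tfdp1, and a median of −0.18. Of the MuvB complex and its partners, 4 genes were tested and 0 called, with −0.18 for Lin9, −0.065 for Lin54 and −0.055 for Mybl2, which encodes B-Myb.

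Replication genes outside the main group were centred near 0. The 17 genes of origin licensing and firing had a median of −0.00026 and 0 calls, with −0.28 for Dbf4, −0.35 for Cdc45 and 0.17 for Gins1. The 21 genes of polymerases and fork proteins had a median of −0.015, and the value with the smallest p was −0.58 for Rfc1, the large subunit of the clamp loader (limma adjusted p = 0.0667). Rpa2 had −0.23 and Pola1 −0.17. The 10 checkpoint genes had a median of 0.011, with −0.32 for Topbp1 (limma adjusted p = 0.138), 0.38 for Cdc25b and −0.16 for Cdc25a.

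Repair partners of Brca2 were not called. Of 12 genes of homologous recombination and the Fanconi pathway, 6 were tested, 0 were called, and the median was −0.040. Fancb had −0.20, Fanci 0.16 and Fanca 0.12. Brca1 and Palb2, which act with Brca2 at breaks and were named after their values were seen, had −0.10 and 0.0098. The differences between Brca2 and these genes were not tested.

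Mitotic genes outside the main group were not called, in 4 lists of 59 tested genes. The 17 kinetochore genes had a median of −0.031, with −0.42 for Cenpf (limma adjusted p = 0.0835), −0.35 for Cenpk and 0.24 for Cenph. The 15 genes of spindle motors and midzone had −0.079, with −0.56 for Kif18a (limma adjusted p = 0.0617), −0.45 for Racgap1 (limma adjusted p = 0.118) and −0.34 for Nusap1. The 12 genes of condensin, cohesin and securin had −0.15, and securin itself, Pttg1, which guards sister cohesion until anaphase, pointed upward with 0.57 (limma adjusted p = 0.0683). Ncapd2 had −0.30 and Espl1, or separase, −0.39. The 15 genes of the anaphase-promoting complex had a median of −0.0011, with 0.24 for Cdc23, −0.29 for Anapc2 and 0.19 for Cdc26.

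With the spike-in ratio set added to the model, 12 of the 141 genes were called in place of 3: Cdkn1a, Ccng1, Ccnh, Pttg1 and Cdc25b were higher, and Cdkn1b, Rbl1, E2f5, Rfc1, Cenpf, Cenpk and Kif18a were lower. Adjusted p in that limma fit ran from 8.08e-11 for Ccng1 to 0.0455 for Cdkn1b. The members called in it were the same 2, Rrm1 and Brca2. Over all 7245 genes tested, 472 were called in that fit, in place of 123. Without control 1 the count among the 141 was 6, with E2f5, Racgap1 and Pttg1 added to the first 3. Among all genes it was 230. With probe sets averaged, Rfc1 was called lower (−0.60, limma adjusted p = 0.0409) and Ccnh was not called. Without mutant 3, Espl1 was called lower (−0.61, limma adjusted p = 0.0499).

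**Figure D5:**
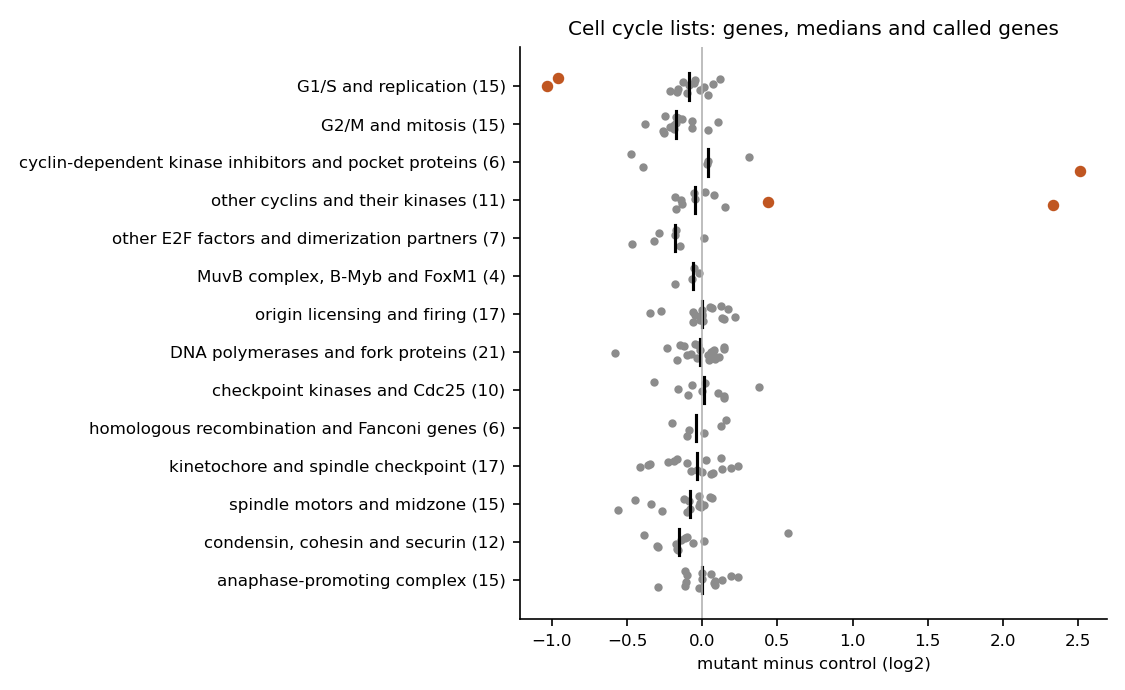
Each point is the log2 difference of 1 tested gene, with black bars for list medians, orange for called genes, and the number of tested genes in parentheses. Medians lie between −0.18 and 0.036, and the called genes are Rrm1 and Brca2 at the left and Ccnh, Ccng1 and Cdkn1a at the right.

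Markers of the tissues read above are given beside these counts. Lower calls included Ripply2 (−1.56) and Pcdh8 (−1.29) among PSM markers, Prrx1 (−1.32) and Hand2 (−0.95) among lateral mesoderm markers, and Kdr (−0.82) among endothelial markers, while Aplnr had −0.72 and was not called. The other tested endothelial markers, named after their values were seen, were not called either. Fli1 had −0.77, while Tek (−0.10) and Cdh5 (−0.056) overlapped between genotypes. Epcam rose by 0.60 and Krt19 by 1.12 among surface ectoderm markers, and Car2 by 0.72 among blood markers, where Hbb-bh1 had 0.50 and was not called. Another blood marker, Tal1, named after its values were seen, pointed the other way, with 486, 607 and 547 in control and 441, 342 and 230.3 in mutant pools (−0.74, limma adjusted p = 0.141), and globins make up most of the blood sums. Among gut endoderm markers Sox17 fell by 1.06 and was called, the 1 of 7 tested that lay below 0. The other 6 lay above 0 and were not called, among them Cldn7 with 0.50, and the median of the 7 was 0.37. The neural genes Sox2 and Sox3 had 0.23 and 0.13 and were not called. Whether these tissue differences bear on Rrm1 or Brca2 was not tested.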

How the data were processed

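Values deposited by the authors were linear intensity, 1 for each probe set on each of 6 arrays. Affymetrix Expression Console and MAS5 were used, per the submitters' processing notes; versions and scaling target are not given in the sources used here. Their scaling was kept. Of 19606 probe sets, 55 were array controls and 17348 carried exactly 1 gene symbol. Signals were taken as log2(signal + 1), probe sets below the 40th percentile of mean log2 signal (geometric mean 349) were left out, and each gene was read from its brightest probe set. Mutant was compared with control by limma 3.58.1 in R 4.3.3 with an intensity trend, two-sided, with Benjamini-Hochberg adjustment over 7245 genes, and the fit was tested on simulated data. The number of arrays limits the precision (median SE 0.14).

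Genes, lists and tests were chosen with earlier results of these data known. Named genes were all members, called genes or up to 3 of smallest p per related list, and up to 2 per marker list, plus Cdkn1a and Ccng1. Equal replicate numbers had residual correlations of 0.12, −0.45 and 0.35 between genotypes, so pools were not treated as pairs. The labels call pools biological replicates. Promoters came from a RefSeq table (GRCm38.p6). Alternatives are given at the end.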

Additional observations from a re-analysis of the deposited data

How the results depend on the processing

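Rrm1 and Brca2 were the 2 members called in each of the 15 other analyses of them, and no other member was called in any. The replicate block, with replicate number as a covariate, gave 2 called members, 176 called genes in place of 123, and 3 called genes of the related lists (Pttg1 in place of Ccnh); medians of members kept their values in it. All genes called numbered 74 with a filter at the 60th percentile, 472 with the spike-in ratio block, and 19 to 230 with 1 array left out (55 without control 2, 48 without control 3, 19 without mutant 1, 26 without mutant 2, 230 without control 1). The related lists had 12 calls with the spike-in ratio block and 2 to 6 with 1 array left out. Within the high-ratio arrays the G1/S median was −0.16, and within the low-ratio arrays the medians were −0.0047 for all members, 0.0074 for G1/S and −0.0066 for G2/M. With 1 array left out these medians were −0.18 to −0.090, −0.11 to −0.041 and −0.26 to −0.095. Differences near 0 changed sign without a call: Mcm5 had 0.0017 after quantile normalization, Mcm7 −0.011, Ccnd1 0.062 and Cenpe 0.093 with probe sets averaged, Mcm7 −0.0068 without cross-hybridising kinds of probe set, and Mcm7 −0.031, E2f1 0.0039, Ccnb2 −0.017 and Kif11 0.022 with the spike-in ratio block. With 1 array left out the ranges were −0.0077 to 0.090 for Pcna, −0.068 to 0.032 for Mcm5, −0.050 to 0.10 for Mcm7, −0.20 to 0.13 for Ccne2, −0.28 to 0.020 for E2f1, −0.16 to 0.10 for Ccnd1, −0.045 to 0.12 for Ccnb2, −0.13 to 0.0088 for Cdc20 and −0.42 to 0.057 for Kif11. The cause of these changes was not tested. Offset 16, no filter and no intensity trend left every one of these counts of genes and members within 1.5 times.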

Other observations

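Other genes of deoxynucleotide supply, named after the result for Rrm1 was seen, were not called. The salvage kinases Dck, Tk2 and Dguok had log2 differences of 0.19, −0.19 and −0.0019, and Samhd1, which breaks deoxynucleotides down, had 0.037, each on its brightest probe set (limma adjusted p = 0.460, 0.635, 0.997 and 0.923). A second tested probe set of Dck had −0.16, the opposite sign, and one of Samhd1 had 0.26, not called. Tk1 and Dut, which feed thymidine nucleotides, had −0.050 and −0.028. Rrm2b, the p53-inducible small subunit of ribonucleotide reductase, lay below the filter on both of its probe sets. The brighter one read 256, 214 and 238 in control and 284, 268 and 272 in mutant pools, so all mutant pools were slightly above all control pools, and it was not tested.

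Genes that lie next to the called pair on their chromosomes were not called. The nearest tested neighbours of Rrm1 were Rhog (−0.11), Pgap2 (0.17) and Nup98 (0.12) on one side and Trim21 (0.040) and the globin genes Hbb-bh1 (0.50) and Hbb-y (0.48) on the other. Those of Brca2 were B3glct, Hsph1 (−0.087), Uspl1, Pds5b (−0.082) and Rfc3 (0.069). Of these 11 genes, 0 were called by limma over all genes, and 2, Hbb-bh1 and Hbb-y, had an unadjusted p under 0.05.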
